A study of Nasonia vitripennis and Nasonia giraulti with 12 samples.

Results

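Runs of neighbouring genes with a moderate female bias were examined in adult jewel wasps: 234 genes in 70 runs, of 24337 genes in the table. A gene qualified when all its counts were whole, its mean in females was at least 5 and below 300 CPM in both species (counts scaled to the library total), females exceeded males by at least 1 and less than 5 on a log2(mean CPM + 0.5) scale in both species, and the females of the 2 species differed by less than 2 on that scale. Rows were ordered by the number in the gene identifier, and the 234 genes are those that qualified in 3 or more rows in succession. The genes were thus selected on the group mean CPM of all 12 libraries, and their sex differences are given as a description and not as a finding.

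The libraries hold messenger RNA of whole adult wasps, labelled 24 h, from 2 closely related parasitoid species, Nasonia giraulti (strain R16A) and Nasonia vitripennis (strain AsymCX). The 4 groups were N. giraulti females, N. giraulti males, N. vitripennis females and N. vitripennis males, with 3 libraries in each, all of them untreated adults as far as the labels say. Animals were pooled by 10 for each library, so the spread within a group is a spread between pools. Total counts ran from 23763596 to 51374887 per library. In each group the deepest was the one numbered 1.

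Nasonia is haplodiploid: unfertilised eggs give haploid males and fertilised eggs give diploid females. In adult female insects the ovary fills growing eggs with maternal RNA, and whole-body RNA of females therefore holds many transcripts of the germ line. Neighbouring genes of insects can be expressed alike when they arose by tandem duplication, share a promoter region or lie in a common stretch of open chromatin. In whole bodies, fewer cells of a type and less RNA per cell cannot be told apart. The identifiers matched none of the 15501 genes in the RefSeq table used here (0 matched), so no function, sequence, length or genome position is given for a gene, known ovary, testis or body markers could not be checked, and CPM values are compared between groups for the same gene, not between genes. Only a few identifiers are printed, and other genes are given by their run and position.

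The runs were short. There were 51 runs of 3 genes, 14 of 4 and 5 of 5, beside 254 pairs and 1257 qualifying genes with no qualifying neighbour. In 58 of the 70 runs the identifier numbers followed each other without a gap. In the other 12 at least 1 number was missing between neighbours, and the widest run, of 5 genes, spanned 7 numbers. Whether genes with successive numbers always lie beside each other on a chromosome was not stated in the sources available. Of 958 isolated pairs of successive rows with fractional counts, 918 had sums that were whole numbers in all libraries (tolerance 0.02 reads plus 2e-05 times the sum).

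Runs lay where genes of moderate level were dense. The first 12169 rows held 63 runs and 5414 genes that met the limits on whole counts and on female CPM. The later rows held 1565 such genes and 7 runs. The last 7301 rows held 537 such genes, of which 130 qualified, and no run. Of all rows 8.21% qualified, against 20.9% of the rows that followed a qualifying row. Among rows that met the limits on whole counts and female CPM, 35.5% of 1177 qualified after a qualifying row and 28.8% of 2673 after a row that met the same limits without qualifying. Runs were mostly far apart, with a median of 122 rows between a run and the next, and 3 lay within 5 rows of the next.

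Of the 139 rows directly outside the ends of the runs, 61 failed because the sex difference was below 1 in both species. Another 4 fell short in N. giraulti alone and 9 in N. vitripennis alone. A further 33 had a female mean below 5 CPM in a species, 20 held fractional counts, 11 reached 300 CPM in females and 1 had a sex difference of 5 or more. At the lower limit of the sex difference, the members nearest to it stood at 1.05 in N. giraulti and 1.0 in N. vitripennis. The nearest genes that missed a run by this limit alone stood at 0.98 in N. giraulti and 0.97 in N. vitripennis. At the upper limit the highest members stood at 5.0 in N. giraulti and 4.76 in N. vitripennis, and the nearest genes outside at 5.03 in N. giraulti and 5.04 in N. vitripennis. Female means of members ran from 5.86 to 249.9 CPM in N. giraulti, with the nearest genes left out at 4.95 and 316 CPM. In N. vitripennis they ran from 5.73 to 264.9 CPM, with the nearest left out at 3.64 and 343 CPM. The largest difference between the females of the species was 1.67 inside and 2.04 outside.

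Together the 234 genes took a small share of each library. They held 1.64%, 1.48% and 1.35% of counts in the N. giraulti female libraries numbered 1, 2 and 3, against 0.414%, 0.379% and 0.373% in the male libraries. In N. vitripennis they held 2.05%, 1.81% and 1.51% in females, against 0.482%, 0.482% and 0.432% in males. No female library came near a male one, and in females of both species the library numbered 1 was the highest and that numbered 3 the lowest. The group means were 1.49% ± 0.145 in N. giraulti females and 0.389% ± 0.0220 in N. giraulti males, and 1.79% ± 0.27 in N. vitripennis females and 0.465% ± 0.0291 in N. vitripennis males (SD, n = 3 each).

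The median sex difference over the 234 genes was 1.85 in N. giraulti and 1.87 in N. vitripennis on the log2(mean CPM + 0.5) scale, 3.60-fold and 3.66-fold higher in females. It lay between 1 and 2 in 131 genes of N. giraulti and 126 of N. vitripennis, and between 4 and 5 in 13 and 17. The difference was larger in N. giraulti in 117 genes and smaller in the other 117. This split depended on the scaling. With library sizes scaled by the trimmed mean of M-values, as in the edgeR tests below, it was larger in N. giraulti in 43 of the 234 genes. Within the range that the rule allowed, Pearson's r between the sex differences in N. giraulti and N. vitripennis was 0.84 across the 234 genes, which are not independent replicates. Genes of the same run were about as unlike as genes of different runs. The SD of the sex difference within runs was 0.87 in N. giraulti and 0.91 in N. vitripennis, against 0.89 and 0.95 over all members.

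**Figure D1:**
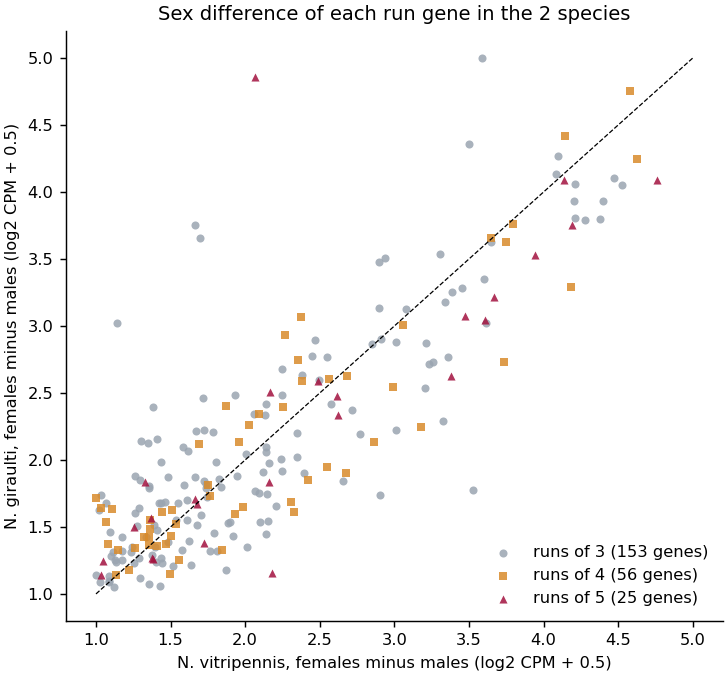
Difference between females and males of each of the 234 run genes in N. giraulti (vertical axis) and N. vitripennis (horizontal axis), on a log2(mean CPM + 0.5) scale, with a symbol for each run length and a dashed line of equal differences. Between 1 and 2 lie 131 genes in N. giraulti and 126 in N. vitripennis, the range from 1 to 5 was set by the rule, and 117 genes lie on each side of the line. The even split holds for counts scaled to the library total.

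Every female library lay above every male library in 233 of the 234 genes in N. giraulti and in 232 in N. vitripennis, and in both species in 231, where 34.9%, 31.6% and 27.1% of all 16536 genes tested had this arrangement. All 234 genes passed the filter on low counts. The quasi-likelihood test of edgeR (Benjamini-Hochberg adjusted p under 0.05 over all genes tested, n = 3 per group) called 234 genes higher in N. giraulti females, where 26.9% of all genes were called, and 233 higher in N. vitripennis females, where 32.4% were. Nothing is read from these counts, since the rule chose the genes on the same means. In the 3 genes whose sexes overlapped, libraries of different replicate number overlapped. Compared between libraries of the same number, all 234 genes were higher in females in each of the 3 numbers and both species, as were 33.5% of all genes tested. The same libraries gave the means that chose the genes, so nothing is read from this count either.

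Among the 5 runs of 5 genes, the one with the highest summed female CPM begins with Nasvi2EG009488. That gene stood at 111, 95.2 and 76.0 CPM in the N. giraulti female libraries, against 15.8, 15.0 and 15.0 CPM in the male libraries. In N. vitripennis it stood at 131, 104 and 73.7 CPM in females, against 21.1, 19.4 and 13.4 CPM in males. The sexes did not overlap in either species. The gene at position 2 stood at 212 ± 44.0 CPM in N. giraulti females and 33.8 ± 4.21 in N. giraulti males, and at 234 ± 62.6 in N. vitripennis females and 22.1 ± 2.32 in N. vitripennis males (SD, n = 3 each). On the log2(mean CPM + 0.5) scale the sex difference ran from 1.84 at position 5 to 3.07 at position 4 in N. giraulti, and from 1.33 to 3.47 at the same positions in N. vitripennis. Position 5 moved apart from the others between libraries: it was lowest in the female library numbered 1 in both species, at 97.0 CPM against 139 and 122 in N. giraulti and at 91.0 CPM against 150 and 130 in N. vitripennis, whereas positions 1 to 4 were highest there.

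The run of 5 that begins with Nasvi2EG000502 mixed small and large sex differences. Its first gene stood at 118, 84.9 and 73.8 CPM in N. giraulti females, against 29.6, 24.0 and 22.8 CPM in males. In N. vitripennis it stood at 178, 125 and 104 CPM in females, against 34.6, 28.2 and 27.0 CPM in males. Its neighbour at position 2 stood at 47.3 ± 5.39 CPM in N. giraulti females and 2.30 ± 0.384 CPM in N. giraulti males, and at 28.2 ± 8.81 CPM in N. vitripennis females and 1.13 ± 0.159 CPM in N. vitripennis males (SD, n = 3 each). On the log2 scale the sex difference was 4.09 in N. giraulti and 4.14 in N. vitripennis at position 2, beside 1.84 and 2.16 at position 1 in the same order of species. Neighbours thus differed in how far females exceeded males, in both species alike. The second run of 5 in identifier order was as uneven. Its first 2 genes had 1 to 2 reads in each N. giraulti male library and 1 to 12 in each N. vitripennis male library, and its last gene had a log2 sex difference of 1.67 in both species. For the gene at position 1, the pooled ratio of females over males was 116 in N. giraulti (95% counting interval 49.5 to 359, exact binomial) and 97.8 in N. vitripennis (49.4 to 227). For the gene at position 2 the pooled ratio was 174 (74.1 to 536) and 104 (63.9 to 182), and these intervals cover counting error only. The pseudocount of 0.5 keeps the log2 differences of such genes below 5.

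**Figure D2:**
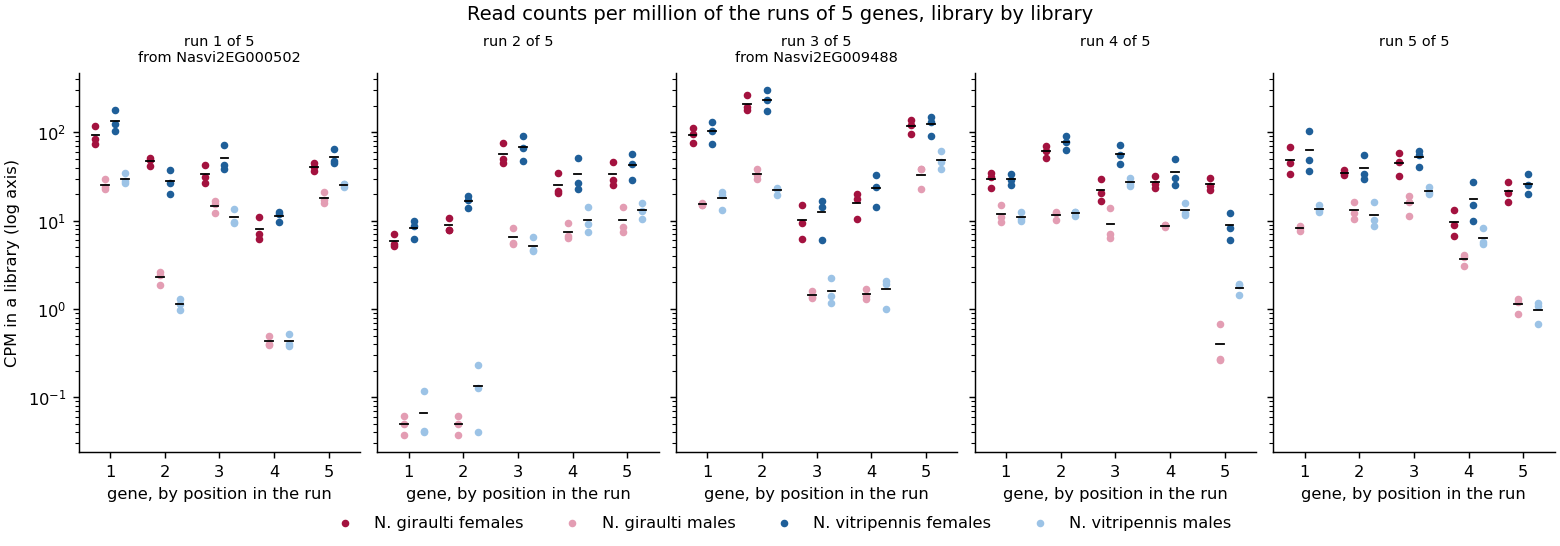
CPM (log axis) of each gene of the 5 runs of 5, in identifier order, by position in the run (horizontal axis), with a point for each of the 3 libraries of a group and a bar for the group mean. In each gene the females of both species lie above the males, and the gap differs between neighbours, for example a log2 sex difference of 4.09 in N. giraulti at position 2 of the run from Nasvi2EG000502 beside 1.84 at position 1.

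The strength of the sex difference was then compared between the species, with a test of the difference itself. The rule bounded this difference without setting its sign, so nothing is read from the counts of calls. In 3 of the 234 genes (1.28%) the excess of females was larger in N. giraulti, where 2.73% of all genes tested were called. In 15 (6.41%) it was smaller, where 4.29% were called (edgeR quasi-likelihood test, adjusted p under 0.05). The 15 genes lay in 11 runs, 4 of which held a pair of them, and no run had all its genes called. The median log2 difference of the sex effects, N. giraulti over N. vitripennis, was -0.38 over the 234 genes and -0.12 over all genes tested. With library size alone as the scaling both medians changed sign, to 0.02 and 0.28. The counts were then 3 larger and 2 smaller, where 4.67% and 2.50% of all genes were called. Blocking on the replicate number gave 58 genes with a smaller sex difference in N. giraulti and 3 with a larger one, where 11.1% and 5.75% of all genes were called.

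Of the 3 genes with a larger sex difference in N. giraulti, Nasvi2EG009655 is the last gene of a run of 5. It stood at 22.2, 24.8 and 30.4 CPM in N. giraulti females, against 0.682, 0.273 and 0.264 CPM in males. Its values in N. vitripennis were 12.3, 6.0 and 8.34 CPM in females, against 1.89, 1.43 and 1.90 CPM in males. Levels were thus higher in females and lower in males of N. giraulti than in those of N. vitripennis, with no overlap in females or in males. The difference of the sex effects was 3.2 on the log2 scale (SE 0.57, edgeR adjusted p = 0.00414). Its 4 neighbours in the run had differences of the sex effects from -0.69 to -0.17, none of which passed the test. Nasvi2EG009398 heads a run of 3. It stood at 21.6, 18.1 and 16 CPM in N. giraulti females, against 1.39, 0.638 and 0.717 CPM in males. Its values in N. vitripennis were 16.5, 15.5 and 11.3 CPM in females, against 3.64, 3.91 and 5.09 CPM in males. Females of the species overlapped and males did not, and the difference of the sex effects was 2.14 (SE 0.47, edgeR adjusted p = 0.0138). All 3 genes were also called lower in N. giraulti males than in N. vitripennis males.

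Of the 15 genes with a smaller sex difference in N. giraulti, Nasvi2EG002497 ends a run of 3. It stood at 98.3, 60.8 and 60.7 CPM in N. giraulti females, against 29.9, 16.9 and 16.3 CPM in males. N. vitripennis had 119, 62.9 and 62.4 CPM in females, against 7.96, 5.6 and 6.22 CPM in males. The females of the species overlapped and all N. giraulti males lay above all N. vitripennis males, and the difference of the sex effects was -2.22 (SE 0.47, edgeR adjusted p = 0.0120). Nasvi2EG008809, in the middle of another run of 3, stood at 35.2, 31.5 and 34.3 CPM in N. giraulti females, against 11.3, 9.02 and 8.91 CPM in males. N. vitripennis had 57.4, 47.6 and 50.0 CPM in females, against 7.75, 5.55 and 6.13 CPM in males. It was lower in N. giraulti females and higher in N. giraulti males, without overlap, and the difference of the sex effects was -1.60 (SE 0.31, edgeR adjusted p = 0.00712). Of the 15 genes, 8 were called higher in N. giraulti males and 9 lower in N. giraulti females. The count of 15 was lower in each of the 12 fits without a library, at 2 to 13. In N. giraulti it was 5 without female library 2, 4 without female library 3, 5 without male library 1, 4 without male library 2 and 9 without male library 3. In N. vitripennis it was 6 without female library 1, 5 without female library 2, 9 without male library 1, 5 without male library 2 and 2 without male library 3.

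In males, 16 of the 234 genes were higher in N. giraulti than in N. vitripennis, where 15% of all genes tested were called, and 20 were lower, where 16.6% were (edgeR, adjusted p under 0.05). The limits on the sex differences and on the females also bounded the species difference in males, so nothing is read from these shares. The median log2 fold change (N. giraulti minus N. vitripennis on the log2 scale) was -0.06 over the 234 genes and -0.01 over all genes. Besides Nasvi2EG002497, with a log2 fold change of 1.87 (SE 0.34, edgeR adjusted p = 0.000913), the highest was Nasvi2EG014248, the first of a run of 4. It stood at 5.86, 4.04 and 3.32 CPM in N. giraulti males, against 1.71, 1.26 and 1.33 CPM in N. vitripennis males, without overlap, a log2 fold change of 1.81 (SE 0.32, edgeR adjusted p = 0.000658). The lowest were Nasvi2EG005111 and Nasvi2EG003680. Nasvi2EG005111, the last of a run of 3, stood at 3.23, 8.87 and 8.04 CPM in N. giraulti males, against 71.2, 34.0 and 27.4 CPM in N. vitripennis males, a log2 fold change of -2.56 (SE 0.49, edgeR adjusted p = 0.00160). Nasvi2EG003680, between its neighbours in a run of 3, stood at 1.62, 0.820 and 0.906 CPM in N. giraulti males, against 6.07, 10.9 and 6.30 CPM in N. vitripennis males, a log2 fold change of -2.55 (SE 0.35, edgeR adjusted p = 0.000103). Males of the species did not overlap in either gene. Another row of the table carries the number of Nasvi2EG005111 with a suffix, so reads may be split between the rows. The neighbours of Nasvi2EG003680 had log2 fold changes of -0.65 and -0.06, and neither passed the test. The 16 genes became 30 without N. giraulti male library 3 and 28 without N. vitripennis male library 1. A fit blocked on the replicate number gave 40 higher and 38 lower, where 21.5% and 23.5% of all genes were called. Scaling by library size alone gave 8 higher and 31 lower, where 11.8% and 21.6% of all genes were called. That scaling moved the median of all genes by -0.20. The 20 genes became 11 without N. giraulti male library 2, 11 without N. giraulti male library 3, 12 without N. vitripennis male library 1 and 13 without N. vitripennis male library 2.

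In females the rule itself kept the species within 2 log2 units of each other, so the values here are a description. The fit called 4 of the 234 genes higher and 54 lower in N. giraulti females, where 12.5% and 18.4% of all genes tested were called. Nasvi2EG009160 had the highest log2 fold change, 1.51 (SE 0.35), with 31.8, 50.7 and 52.3 CPM in N. giraulti females, against 8.67, 15.9 and 16.5 CPM in N. vitripennis females. Nasvi2EG002495, the first gene of the run that Nasvi2EG002497 ends, had the lowest, -1.91 (SE 0.28), with 17.2, 11.9 and 11.4 CPM in N. giraulti females, against 60.6, 38.3 and 33.4 CPM in N. vitripennis females. The groups did not overlap in either gene. Nasvi2EG021459 followed at -1.57 (SE 0.39), with 9.63, 7.24 and 4.75 CPM in N. giraulti females, against 26.5, 17.0 and 12.6 CPM in N. vitripennis females, again without overlap. The count of 54 moved with the scaling: it was 19 with upper-quartile scaling, 15 with library size alone and 126 in a fit blocked on the replicate number. The shares of all genes called lower in these fits were 13.1%, 12.8% and 30.4%. The count was 16 to 73 over the 12 fits without a library. Each of the 6 fits without a male library gave 25 or fewer, and those fits moved the median log2 fold change of all genes by 0.17. Without N. giraulti female libraries 2 or 3 it was 31 or 22, and without N. vitripennis female libraries 1 or 2 it was 31 or 28. The 4 genes were 2 without N. giraulti female library 2, N. giraulti female library 3 or N. vitripennis female library 2. Over all species comparisons, 155 of the 234 genes (66.2%) were called in neither sex and not in the test of the difference, as were 56.3% of all genes tested. The rule bounded the species difference in females, so nothing is read from this count.

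The rule used no difference between replicates of a group. The libraries numbered 1 did enter the group means that chose the genes, and only 180 of the 234 were chosen without them. Compared with the libraries numbered 2 and 3 of the same groups, 120 of the 234 genes (51.3%) were higher in the libraries numbered 1, where 21.4% of all genes tested were called, and 15 (6.41%) were lower, where 16.5% were called (edgeR, adjusted p under 0.05, 4 libraries against 8). The median log2 fold change was 0.32 over the 234 genes and 0.05 over all genes tested. The 120 genes were 82 with upper-quartile scaling, where 14.9% of all genes were called, and 100 with library size alone, where 18.9% were. The 15 were 22 and 16 in these fits, where 19.5% and 17.1% of all genes were called. Over the 12 fits without a library, 88 to 116 genes were higher and 11 to 18 lower. Qualifying genes outside the runs showed much of the same: 43.9% of the 508 genes in pairs and 42.9% of the 1257 with no qualifying neighbour were higher in the libraries numbered 1, with medians of 0.27 and 0.26. Among the 214 genes of the runs chosen without the libraries numbered 1, a choice made after seeing the data, 113 (52.8%) were higher and 13 (6.07%) lower in those libraries, with a median of 0.35. Among the 1238 genes with no qualifying neighbour in that choice, 42.4% were higher, with a median of 0.26. The difference between genes in runs and these genes was not tested. The labels call the replicates independent batches, and they tie no number to a shared day or batch. However, libraries of the same number deviated together across groups, with r of 0.20 to 0.708 over all genes tested. The 4 libraries numbered 1 may therefore not be independent replicates, and the p-values of this comparison do not allow for that. Depth was also highest in these libraries, and its part in the difference was not tested.

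In 57 of the 70 runs at least 1 gene was higher in the libraries numbered 1, in 44 at least 2 were, and in 6 all were. Genes of both directions were called in 5 runs, and in 6 runs none was called. The largest increase was in Nasvi2EG010210, the first of a run of 4. It stood at 36.7 CPM in the N. giraulti female library numbered 1, against 19.8 and 17.7 CPM in the other 2, and at 62.4 CPM in the N. vitripennis female library numbered 1, against 24.1 and 17.5 CPM. In males it stood at 4.95 CPM against 3.77 and 4.19 in N. giraulti, and at 9.91 CPM against 6.35 and 4.40 in N. vitripennis. The library numbered 1 was the highest in all 4 groups, with a log2 fold change of 1.0 (SE 0.16, edgeR adjusted p = 0.000827). Nasvi2EG007068, in another run of 4, stood at 17.4 CPM against 9.18 and 11 in N. giraulti females and at 20.3 CPM against 8.85 and 10.8 in N. vitripennis females, with a log2 fold change of 0.90 over all 4 groups (SE 0.15, edgeR adjusted p = 0.00118).

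The largest decreases were a pair of neighbours, Nasvi2EG004381 and Nasvi2EG004383, at positions 2 and 3 of a run of 3. Nasvi2EG004381 stood at 27.7 CPM in the N. giraulti female library numbered 1, against 79.5 and 42.4 CPM in the other 2, and at 15.4 CPM in the N. vitripennis female library numbered 1, against 101 and 69.0 CPM. In males it stood at 4.62 CPM against 9.84 and 13.8 in N. giraulti, and at 7.44 CPM against 24.2 and 11.7 in N. vitripennis. It is a gene whose sexes overlapped in N. vitripennis, since the female library numbered 1 lay below the male library numbered 2. Nasvi2EG004383 stood at 6.30 CPM against 16.8 and 17.7 in N. giraulti females and at 7.62 CPM against 21.4 and 22.0 in N. vitripennis females. Their log2 fold changes were -1.47 (SE 0.27, edgeR adjusted p = 0.00229) and -1.42 (SE 0.30, edgeR adjusted p = 0.00381). The gene at position 1 of the same run was higher in the libraries numbered 1, with a log2 fold change of 0.42 (SE 0.13, edgeR adjusted p = 0.0231).

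**Figure D3:**
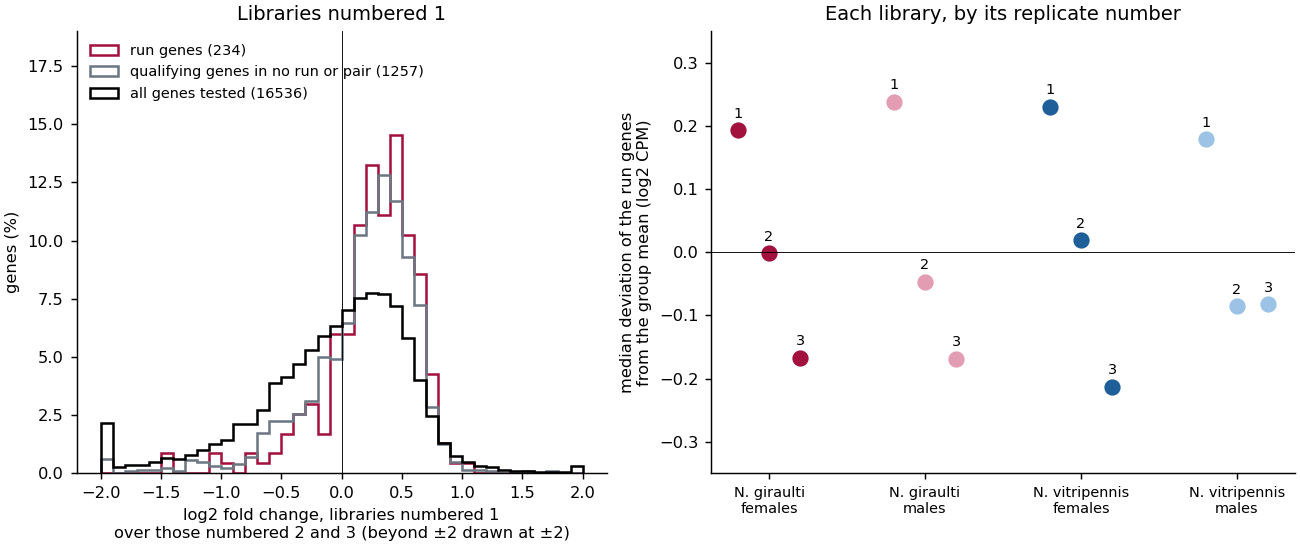
Left, distribution of the log2 fold change of the libraries numbered 1 over those numbered 2 and 3, for the 234 run genes, the 1257 qualifying genes in no run or pair and all 16536 genes tested, as percent of each list. Right, median deviation of the run genes from their group mean in log2 CPM, for each library by its replicate number. The run genes centre on 0.32, all genes on 0.05, and the library numbered 1 is the highest point in each group.

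The variation within groups was then compared between neighbours. After the mean of each species and sex was removed, the 164 pairs of adjacent genes in a run had a median Pearson correlation of 0.51 over the 12 libraries, and the 123 pairs farther apart in the same run had 0.52. The 2 genes of the 254 qualifying pairs, adjacent as well, had 0.43. Genes of different runs had 0.40 over 26974 pairs, and the 10089 pairs of adjacent rows tested with whole counts had 0.21. Qualifying genes with no qualifying neighbour had 0.27 among themselves. Removing the replicate number as well gave medians of 0.15 and 0.19 within runs, 0.15 for the qualifying pairs and 0.11 between runs. It gave 0.13 for all adjacent rows and 0.08 for the genes with no qualifying neighbour. These are descriptions without a test, and the pairs share the same 12 libraries.

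**Figure D4:**
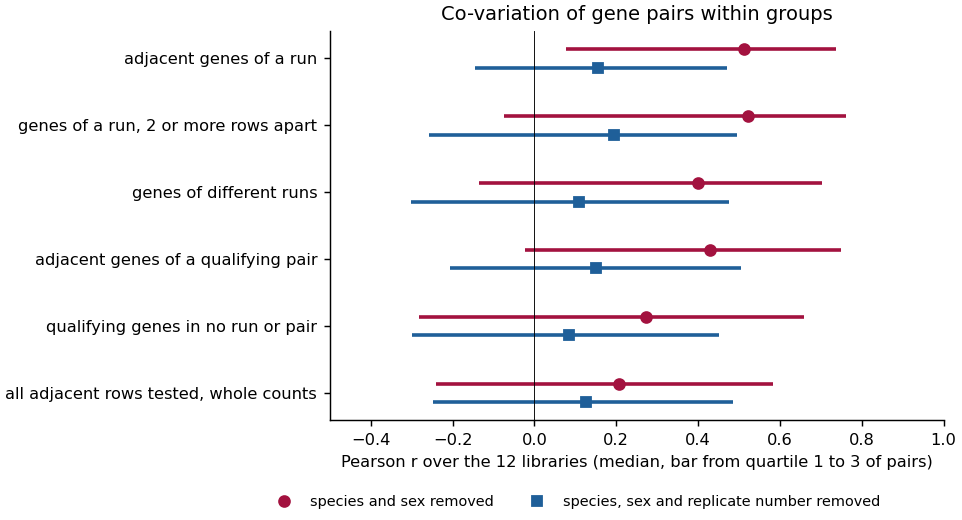
Pearson correlation of gene pairs over the 12 libraries after species and sex were removed (circles) and after the replicate number was removed too (squares), as the median of the pairs with a bar from the lower to the upper quartile. Adjacent genes of a run stand at 0.51 and 0.15, those of a qualifying pair at 0.43 and 0.15, and all adjacent rows at 0.21 and 0.13.

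Rows beside the runs were read for the sex calls at a distance of 2 or more rows. Of the 639 genes tested 2 to 6 rows outside the ends of the runs, 197 were called higher in females in both species, 30.8% with an exact binomial 95% interval of 27.3 to 34.6, where 24.1% of all genes tested were called. The same rows beside qualifying genes with no qualifying neighbour gave 28.8% (27.8 to 29.8) of 7839 genes, so the intervals of both sets overlapped. However, 20 of the 639 genes belonged to a nearby run and had been chosen by the rule. Without run members, which was decided after seeing the data, 177 of 619 genes beside the runs were called, 28.6% (25.1 to 32.3), against 27.8% (26.8 to 28.9) of 7737 beside the genes with no qualifying neighbour and 23.0% of all other genes tested. In the fit blocked on the replicate number the shares with run members counted were 35.2% beside the runs, 33.7% beside the genes with no qualifying neighbour and 28.1% over all genes.

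**Figure D5:**
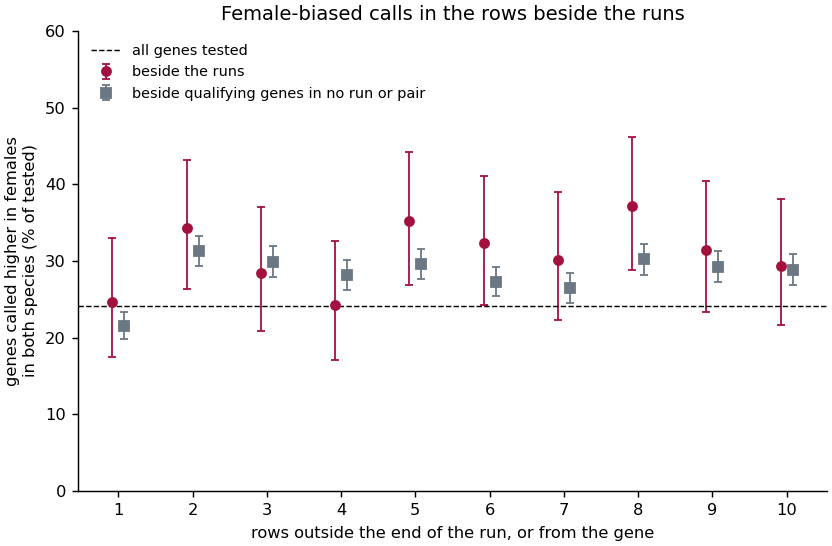
Share of tested genes called higher in females in both species (edgeR, adjusted p under 0.05), by the number of rows outside the end of a run (circles) or from a qualifying gene with no qualifying neighbour (squares), with exact binomial 95% intervals and a dashed line at the 24.1% of all genes tested. Members of nearby runs are counted, the row at distance 1 had to fail the rule, and from 2 to 10 rows both sets lie mostly above the line.

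Runs were also chosen in 1 species alone and read in the other, which the choice had not used. Limits on whole counts, female CPM and the sex difference in N. giraulti gave 140 runs with 480 genes. Of these, 445 (92.7%, exact binomial 95% interval 90.0 to 94.9) were called higher in females of N. vitripennis, where 32.4% of all genes were called, and 3 were called lower. In 108 of the 140 runs all genes were called. Genes that met the limits in N. giraulti with no such neighbour were called in N. vitripennis in 90.4% (88.8 to 91.9) of 1476 cases. Limits in N. vitripennis gave 120 runs with 400 genes, of which 368 (92.0%, interval 88.9 to 94.5) were called higher in females of N. giraulti, where 26.9% of all genes were called, and in 93 runs all genes were. Genes with no such neighbour were called in 85.4% (83.4 to 87.2) of 1421 cases. Neighbouring genes share libraries, so these intervals cover counting error only.

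Last, the rule was applied to 8 libraries and read in the 4 libraries of the number left out, with 1 library per group and therefore no test. Without the libraries numbered 1 it gave 65 runs with 214 genes, 180 of which were among the 234. All 214 were higher in females of both species in the libraries numbered 1, and 197 (92.1%) by at least 1 log2 unit in both, against 21.6% of all genes tested. Without those numbered 2 the share was 91.5% of 247 genes, and without those numbered 3 it was 84.1% of 245 genes. Qualifying genes with no qualifying neighbour, chosen and read in the same way, reached 95.5%, 88.8% and 81.4% in the libraries numbered 1, 2 and 3.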

How the data were processed

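A table of 24337 genes and 12 libraries was deposited by the authors, holding estimated counts with no scaling for depth. Per the submitters' processing notes, which give no role or order, the tools were edgeR, bedtools, HTSeq, Trimmomatic, FastQC, Cufflinks 2.1.0, TopHat2 2.0 and CASAVA 1.8.2. Genome build, annotation and strand setting: not given in the sources used here. It is not stated whether reads of both species were aligned to a single reference, so reads lost in a species and lower expression cannot be told apart. Fractional values occurred in 3372 genes (13.9%), and none of them is a member. Every row named a gene, and no column was left unused.

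Members were chosen on CPM by column sum with a pseudocount of 0.5. The members, lists and tests were chosen with earlier results of these data known. Counts were rounded, genes were kept with filterByExpr (minimum count of 10, 16536 genes), library sizes were scaled by the trimmed mean of M-values, and the quasi-likelihood model took all 12 at once, 1 mean for each group (R 4.3.3, edgeR 4.0.16, robust, common dispersion 0.111), with p-values adjusted by Benjamini and Hochberg over all genes. Contrasts were females over males and N. giraulti over N. vitripennis. The SE is the absolute log2 fold change divided by the square root of F. The libraries numbered 1 were compared in a fit with group and replicate number. Intervals are exact binomial at 95% and cover counting error only. The fits were tested on simulated counts drawn independently for each library. That check does not cover deviations shared by libraries of the same number.

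The genes named were the first genes of the 2 longest runs (by summed female CPM among equals) and, for each contrast other than sex, the 2 highest and 2 lowest members by log2 fold change among those past 0.05. Other genes were described after their values were seen.

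Between replicates, chi-square per degree of freedom was 40.1 to 271, above sampling noise. Deviations from group means, correlated across all genes tested, had r of 0.20 to 0.708 in the 18 pairs of libraries with the same number in different groups and of -0.57 to 0.325 in the 36 other pairs. The numbers therefore pair the libraries by the data, not by the labels. P-values of the fit without the replicate number measure the spread between pools of a group. That spread includes what libraries of the same number share. Common dispersion was 0.111 in this fit and 0.0477 once the number was blocked. Alternatives were other scalings and filters, the Wald test of DESeq2 1.42.0, the replicate number as a block, only the compared groups, each library left out in turn, and other settings of the rule. The libraries numbered 2 and 3 alone, the rows beside runs without run members, and the libraries numbered 1 read in runs chosen without them were added after the data were seen.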

Additional observations from a re-analysis of the deposited data

Results flagged for a closer look

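The test of the difference itself called a few of the run genes as unlike in their sex difference between the species. The sex difference was larger in N. giraulti in 3 of the 234 genes (1.28%), where 2.73% of all genes tested were called. It was smaller in 15 (6.41%), where 4.29% were called. The rule bounded this difference, so nothing is read from these counts. The edgeR adjusted p of the difference was 0.00414 for Nasvi2EG009655 and 0.0138 for Nasvi2EG009398, both with the larger sex difference in N. giraulti. It was 0.0120 for Nasvi2EG002497 and 0.00712 for Nasvi2EG008809, both with the smaller one. These 4 genes kept their direction and their call in the 19 other fits in which they were read, with adjusted p (edgeR or DESeq2) from 3.21e-07 to 0.0441.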

How the results depend on the processing

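The sex calls kept 221 to 234 genes in N. giraulti and 232 to 234 in N. vitripennis without a library. With upper-quartile scaling they kept 213 and 223, where 21.8% and 24.2% of all genes were called. Without a library, the 3 genes with a larger sex difference in N. giraulti were 2 to 3. The 15 genes with a smaller one were 6 with the size factors of DESeq2, 6 with upper-quartile scaling, 2 with library size alone, 5 with no filter on low counts, and 58 when the replicate number was a block. Without a library they were 2 to 13. The share of all genes called with a smaller one was 3.52% with the size factors of DESeq2 and 3.13% with upper-quartile scaling. It was 2.50% with library size alone and 11.1% with the block. Of the species differences in females, the 54 lower genes were 19 with upper-quartile scaling, 15 with library size alone, 126 with the block and 18 with only females in the fit, and 16 to 73 without a library, where the 4 higher genes were 2 to 6. In males, the 16 higher genes were 8 with library size alone, 40 with the block, 25 with the libraries numbered 2 and 3 alone (chosen after seeing the data) and 10 with only males in the fit, and 14 to 30 without a library. The 20 lower genes were 31 with library size alone and 38 with the block, and 11 to 22 without a library. The shares of all genes called moved too. In females, 13.1% of all genes were lower with upper-quartile scaling, 12.8% with library size alone and 30.4% with the block. In males, 11.8% of all genes were higher and 21.6% lower with library size alone, and 21.5% and 23.5% with the block. Library size alone moved the median of all genes by 0.40 in the difference of the sex effects, 0.20 in females and -0.20 in males, and in those contrasts the log2 values hold only relative to such a shift. The cause of the other moves was not tested.

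The rule gave 142 genes when fractional counts were allowed and runs needed 4 genes, and 81 when runs were 1 gene longer. Of the 142 genes, 90 were among the 234 (38.5% of the 234), and all 81 were. With CPM by library sizes scaled by the trimmed mean of M-values the rule gave 172 genes, 149 of them among the 234 (63.7%). With each library left out in turn, 71.8% to 100% of the 234 genes were kept. The lowest share was without N. vitripennis female library 1. The share of rows beside runs was 35.2% with the block and 28.6% without run members, and the median correlation of adjacent members was 0.15 with the block. With the block no other count of calls moved by over 1.5 times. Genes with few male reads limit precision: 10 members had under 10 reads in a male library and 1 had none (0 reads).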

Other observations

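Qualifying genes outside the runs were close to the run genes in the median difference of the sex effects between the species. The sex difference was smaller in N. giraulti in 6.41% of the 234 run genes, against 4.92% of the 508 genes in pairs and 5.17% of the 1257 genes with no qualifying neighbour, and the median differences were -0.38, -0.42 and -0.37 on the log2 scale. A larger sex difference was called in 1.28%, 0.20% and 1.27% of these lists. Over all genes tested, 4.29% were called smaller and 2.73% larger. In males, 6.84% of the run genes were higher in N. giraulti, against 6.50% of the genes in pairs and 6.52% of those with no qualifying neighbour. Lower in N. giraulti males were 8.55%, 7.68% and 9.47%. Over all genes tested, 15.0% were higher and 16.6% lower in males. These shares were not tested against each other.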
